A study of Monascus purpureus with 6 samples.

Results

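A group of 75 genes was picked out in Monascus purpureus, a filamentous fungus grown for its red pigments, for mRNA levels higher in metal-ion than in control mycelia. In 74 of them every metal-ion library held at least 2 times as much as any control library, and the exception, MAP00_001897, is described on its own. They are 75 of 9836 gene identifiers, and of 9151 locus tags, in the deposited table. Each had a mean of at least 5 CPM over 6 libraries (counts scaled to a library total of 1000000), and its lowest CPM in metal-ion mycelia was at least 2 times its highest in control mycelia. The genes were therefore chosen by their measured values in this comparison, so their rises are given as a description, without a test. Of 6858 locus tags with a mean of at least 5 CPM, 96 met both thresholds, which is 1.4%. A gap between the groups of any size, with every metal-ion library above every control library, was seen in 1685 (24.6%). The 21 left out lay in the runs MAP00_007446 to MAP00_007476, MAP00_006373 to MAP00_006379 and MAP00_005935 to MAP00_005942 or were single locus tags such as the superoxide dismutase gene SOD2. The reverse thresholds, with control at least 2 times above metal-ion, were met by 9 locus tags (0.131%).

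Mycelia of the wild-type strain MP2022 were harvested at day 1, with 3 libraries per group. Metal-ion mycelia are labelled with no hydrated zinc sulphate (0.0 g/L) and with hydrated magnesium sulphate at 2.5 g/L. Control mycelia are labelled as untreated, with zinc at 2.0 g/L and magnesium at 1.0 g/L named in the same label, so that it is unclear whether their medium held these salts. The study sought a ratio of zinc and magnesium for making ethanol and pigments together. The labels do not say whether the 3 libraries were separate cultures. The p-values set the difference between groups against the spread of these samples, which may therefore be technical. Metal-ion libraries held 35357043, 38927910 and 35314601 counts, and control libraries 33638067, 36537672 and 33706761. Metal-ion replicate 2 stood apart from replicates 1 and 3 of its group, as their counts differed by a chi-square of 118 and 109.8 per degree of freedom, against 36.7 between replicates 1 and 3. Without it, 115 genes met the rule instead of 75, and 74 of the 75 were among them. In bulk mycelia, fewer cells of a kind and less RNA per cell cannot be told apart.

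Zinc is built into many fungal enzymes and into the DNA-binding domains of a large family of fungal transcription factors. Magnesium is carried with ATP and holds ribosomes together. In filamentous fungi, genes that serve a shared biosynthetic pathway often lie side by side and are transcribed together. Only 3 of the 75 genes have a symbol in the annotation used here, LEU2A, MDR1_2 and AOX1_3, and the others are named by locus tag.

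The 75 genes together took 1.18, 1.13 and 1.34% of all counts in metal-ion replicates 1 to 3, against 0.311, 0.301 and 0.329% in control replicates 1 to 3. For 74 of them a fold change could be fitted with edgeR. Over all genes, 603 of 9048 tested genes, 6.66%, were called higher at an adjusted p under 0.05, and 481, 5.32%, were called lower. All 74 were among the 603, which follows from how they were chosen and is no test of them. The log2 fold changes of the 74, metal-ion over control, had a median of 1.67, a 3.17-fold difference, with quartiles of 1.43 and 1.97. The median of all tested genes was 0.03. The smallest rise was that of MAP00_009103 at 1.07 ± 0.13 (SE) and the largest that of MAP00_002305 at 8.14 ± 0.22.

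Most rises were moderate and a few were very steep. Of the 74 genes, 23 had a log2 fold change under 1.5, 33 from 1.5 to 2, 10 from 2 to 4 and 8 of at least 4. No gene lay between the eighth, MAP00_001195 at 4.11 ± 0.25, and the ninth, MAP00_005429 at 3.09 ± 0.18. Among all tested genes 11 had a log2 fold change of at least 4. Besides the 8 these were SOD2 at 5.94 ± 0.21, MAP00_008385 at 4.90 ± 0.31 and MAP00_006902 at 4.54 ± 0.79. The last 2 fell short of a mean of 5 CPM, and MAP00_006902 had at most 0.668 CPM in any library.

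**Figure D1:**
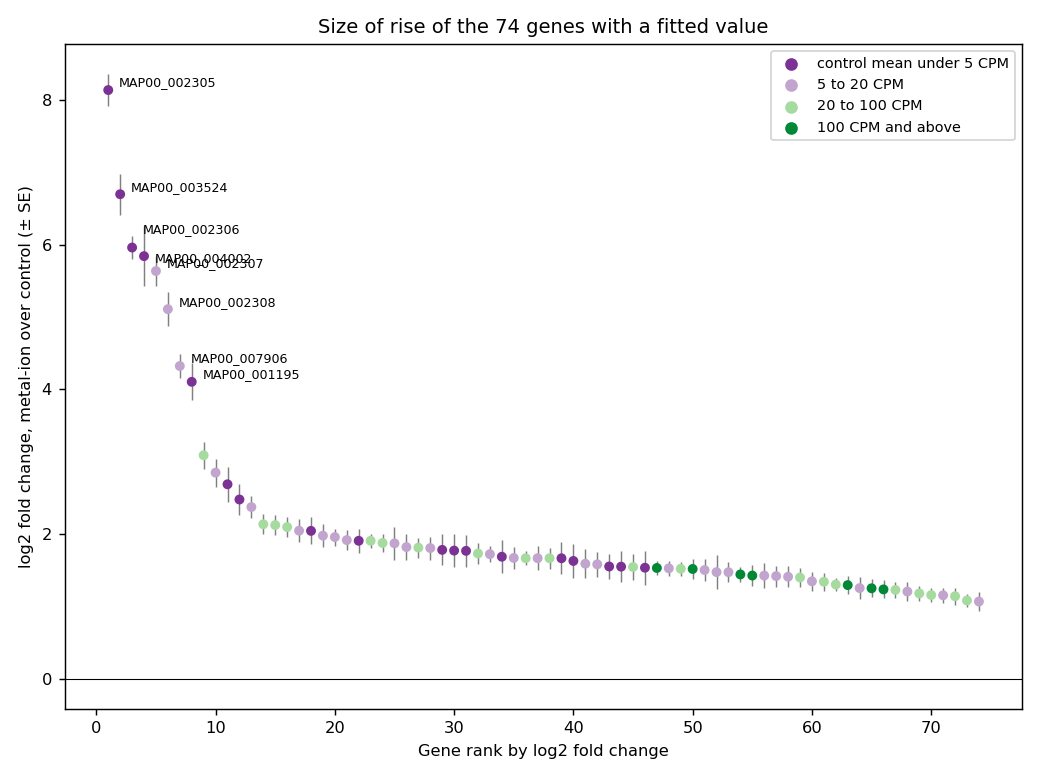
Log2 fold change, metal-ion over control, of the 74 genes with a fitted value, ordered from the steepest, with bars of 1 standard error and colours for the control mean CPM. The 8 labelled genes lie at 4.11 or above, and every one of them had a control mean under 20 CPM.

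The steepest 8 genes had low levels in control mycelia, each under 20 CPM on average. Together they took 0.251, 0.246 and 0.327% of counts in metal-ion replicates 1 to 3, against 0.00449, 0.00380 and 0.00563% in control replicates 1 to 3. All 8 were highest in metal-ion replicate 3, as were 36 of the 74. Among control libraries 6 of the 8 were highest in replicate 3 and 6 were lowest in replicate 2. 

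MAP00_002305 had 473, 441 and 580 CPM in metal-ion replicates 1 to 3, against 1.69, 1.15 and 2.08 CPM in control replicates 1 to 3. Its lowest metal-ion value was 212 times its highest control value. Ranked by the authors' FPKM, which divides by gene length, it stood at place 381 of 9151 locus tags in metal-ion and at place 7978 in control mycelia. The next gene, MAP00_002306, had 149, 147 and 181 CPM in metal-ion and 2.17, 2.11 and 2.82 CPM in control libraries, a log2 fold change of 5.96 ± 0.16. MAP00_002307 reached 813, 777 and 1031 CPM in metal-ion libraries, against 15.1, 13.4 and 20.3 CPM in control libraries, a log2 fold change of 5.64 ± 0.20. MAP00_002308 had 366, 387 and 541 CPM in metal-ion libraries and 13.3, 8.35 and 13.3 CPM in control libraries, a log2 fold change of 5.11 ± 0.23. In these 4 adjacent genes the lowest metal-ion value was 27.5 times the highest control value or more.

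Another gene, MAP00_002304, adjoins these 4 and rose far less. It had 14.7, 17.8 and 14.4 CPM in metal-ion libraries, against 4.55, 5.17 and 5.16 CPM in control libraries, a log2 fold change of 1.55 ± 0.17. The run ended sharply on both sides. MAP00_002303, beside MAP00_002304, averaged 62.7 ± 0.384 CPM in metal-ion and 70.3 ± 4.67 CPM in control mycelia (SD, n = 3 each), a log2 fold change of -0.27 ± 0.09 that was not called (edgeR adjusted p = 0.0910). It was called lower without metal-ion replicate 2, at -0.32 (edgeR adjusted p = 0.0191). MAP00_002309, beside MAP00_002308, averaged 65.6 ± 6.75 CPM in metal-ion and 50.9 ± 7.72 CPM in control mycelia, a log2 fold change of 0.26 ± 0.14 that was not called either (edgeR adjusted p = 0.237).

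**Figure D2:**
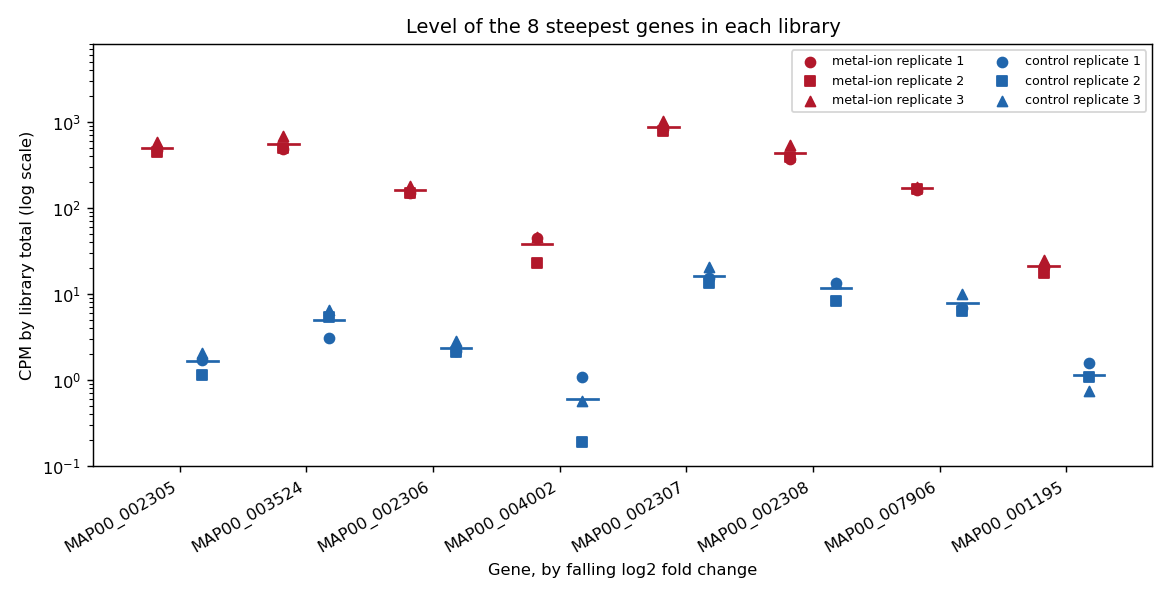
CPM on a log scale of the 8 steepest genes in each metal-ion library (red, left) and each control library (blue, right), with a line at the mean of the 3 libraries and a marker shape for each replicate number. The groups lie more than a factor of 10 apart in every gene, and MAP00_004002 is the one with metal-ion replicate 2 well below replicates 1 and 3.

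MAP00_003524, the second steepest gene, lies next to SOD2, which in yeast encodes the superoxide dismutase of mitochondria. It had 481, 498 and 689 CPM in metal-ion replicates 1 to 3, against 3.09, 5.34 and 6.44 CPM in control replicates 1 to 3, a log2 fold change of 6.70 ± 0.28. SOD2 averaged 690 ± 80.2 CPM in metal-ion and 10.5 ± 2.65 CPM in control mycelia (SD, n = 3 each). By FPKM, MAP00_003524 stood at place 85 of the locus tags in metal-ion and at place 5408 in control mycelia, and only it and MAP00_005247 were among the 100 highest in metal-ion mycelia. On its other side MAP00_003525 had 57.8, 50.7 and 72.8 CPM in metal-ion and 22.5, 26.0 and 24.4 CPM in control libraries, a log2 fold change of 1.20 ± 0.14 (edgeR adjusted p = 3.63e-04). Its lowest metal-ion value was 1.95 times its highest control value, just short of the rule. MAP00_003526 and MAP00_003527 were called higher as well, at 0.49 ± 0.09 and 0.75 ± 0.20, the latter narrowly (edgeR adjusted p = 0.0404). The genes from SOD2 to MAP00_003527 thus form a run of 5 called genes. Those after MAP00_003524 rose far less than it did, without a steady decline.

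The remaining steep genes lay elsewhere. MAP00_004002 had 44.4, 22.7 and 46.1 CPM in metal-ion libraries, against 1.07, 0.192 and 0.564 CPM in control libraries, the lowest control level of the 74. Those control values rest on 36, 7 and 19 counts, and its log2 fold change of 5.85 carried the largest error of the 74, ± 0.42. Its model overlaps that of QNS1, which averaged 453 ± 29.5 CPM in metal-ion and 422 ± 28.1 CPM in control mycelia (SD, n = 3 each; edgeR adjusted p = 0.970), and without strand the reads of overlapping models cannot be told apart. MAP00_004002 also opened a run of 3 adjacent genes called higher, followed by MAP00_004003 and MAP00_004004, which did not meet the rule. MAP00_007906 had 163, 166 and 174 CPM in metal-ion libraries, against 6.90, 6.40 and 10.03 CPM in control libraries, a log2 fold change of 4.32 ± 0.17. MAP00_001195 had 20.7, 17.4 and 24.9 CPM in metal-ion libraries, against 1.58, 1.07 and 0.742 CPM in control libraries. It stood alone, with no other of the 75 genes within 3 positions.

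One of the 75, MAP00_001897, met the rule without being high in every metal-ion library. It was listed with 593, 0 and 622 counts in metal-ion replicates 1 to 3 and with 0 counts in all 3 control libraries. The 16.8 and 17.6 CPM in replicates 1 and 3 carried its mean past 5 CPM, and its lowest metal-ion value of 0 counts as at least 2 times a highest control value of 0. A count of 0 allows up to 0.0771 CPM in metal-ion replicate 2, at 3 counts and for counting error only. The gene was not tested and no fold is given for it. In the whole table, 15 genes had 0 counts in 1 library and at least 100 in another, and MAP00_001897 alone had that pattern of 2 high metal-ion libraries beside 4 empty ones.

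Below the steepest genes, 10 had log2 fold changes from 2 to 4, and their control means ran from 1.87 to 85.2 CPM. MAP00_008619 had 16.2, 11.1 and 12.0 CPM in metal-ion libraries, against 1.46, 1.61 and 2.55 CPM in control libraries, a log2 fold change of 2.69 ± 0.24. MAP00_008716 had 24.3, 25.7 and 21.1 CPM in metal-ion libraries, against 3.72, 2.82 and 5.37 CPM in control libraries, at 2.48 ± 0.22. Both were weakly expressed under either condition. MAP00_008551 had 87.8, 110.5 and 113.7 CPM in metal-ion libraries, against 20.6, 18.7 and 16.8 CPM in control libraries, at 2.37 ± 0.15. MAP00_005521 was the most abundant of the 10, with 382, 348 and 480 CPM in metal-ion libraries, against 86.2, 77.0 and 92.4 CPM in control libraries. It stood at place 227 by FPKM in metal-ion and at place 1034 in control mycelia. The other genes of this size were MAP00_008721 at 2.12 ± 0.14, MAP00_001229 at 2.10 ± 0.14, MAP00_003117 at 2.05 ± 0.16 and MAP00_004328 at 2.04 ± 0.19, besides MAP00_005429 and MAP00_002216 described below.

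In a few of the genes 1 metal-ion library set much of the spread. MAP00_001708 had 94.2, 46.4 and 65.6 CPM in metal-ion libraries, against 22.1, 22.2 and 20.4 CPM in control libraries, with replicate 1 far above replicate 2. MAP00_001334 had 21.8, 39.2 and 24.1 CPM in metal-ion libraries, against 10.2, 9.14 and 9.46 CPM in control libraries, with replicate 2 the highest. At the other extreme MAP00_006466 had an SD of 4.57 CPM around a metal-ion mean of 382 CPM.

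MAP00_002580 lies beside AAD14, named for an aryl-alcohol dehydrogenase of yeast, which was left out of the rule. It had 21.1, 23.5 and 26.0 CPM in metal-ion libraries, against 8.53, 7.91 and 8.13 CPM in control libraries, a log2 fold change of 1.42 ± 0.14. AAD14 averaged 93.8 CPM in metal-ion and 29.9 CPM in control mycelia, a log2 fold change of 1.54 ± 0.13.

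Control levels of the 74 spanned a wide range, with means of 0.608 to 538 CPM and a median of 15.4 CPM. Metal-ion means ran from 8.42 to 1380 CPM, with a median of 62.2 CPM. For comparison, the median control level of all locus tags with a mean of at least 5 CPM was 46.8 CPM, and 59 of the 74 genes (79.7%) lay below it. By FPKM the median place of the 74 was 2399.5 in metal-ion and 5471.5 in control mycelia, out of 9151. Among the 500 highest locus tags by FPKM were 13 of them in metal-ion and 2 in control mycelia.

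Grouped by control level, 18 genes under 5 CPM had a median log2 fold change of 1.84, and 29 genes from 5 to 20 CPM had 1.67. A further 20 genes from 20 to 100 CPM had a median of 1.60, and 7 genes of at least 100 CPM had 1.43. All 8 of the steepest were under 20 CPM in control mycelia, 5 of them under 5 CPM. The rule bears on this order, since a gene of low control level passes the mean of 5 CPM only if it is high in metal-ion mycelia. In the mean-filtered table, the 18 genes under 5 CPM were 12.5% of the locus tags of that control level. The 7 genes of at least 100 CPM were 0.386% of theirs. These shares cannot be compared. A locus tag under 5 CPM in control mycelia enters that table only if it is higher in metal-ion mycelia.

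**Figure D3:**
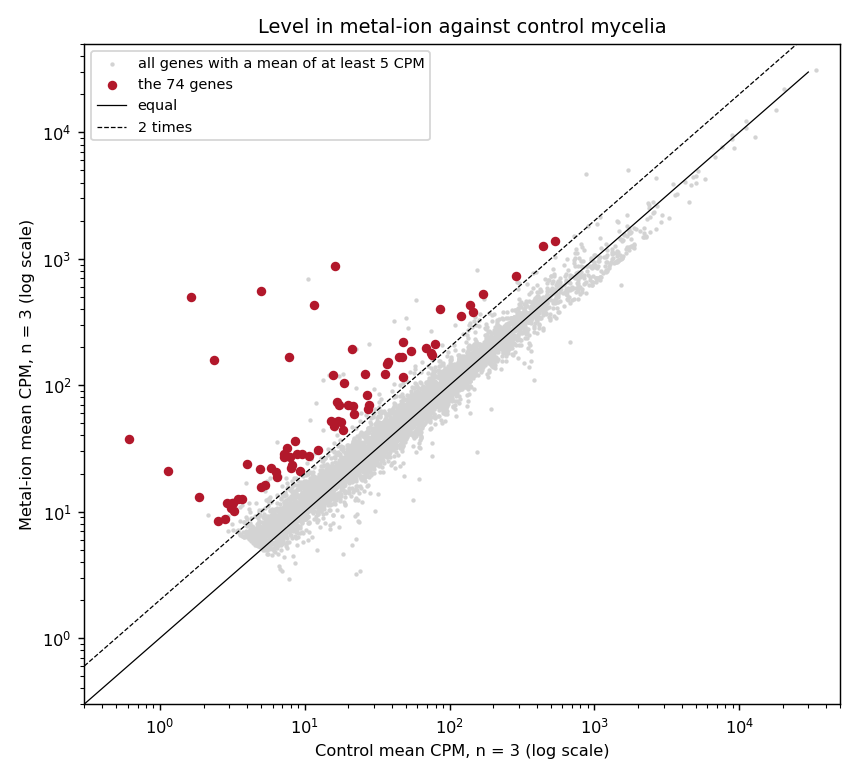
Mean CPM in metal-ion mycelia against mean CPM in control mycelia, n = 3 each and log scales on both axes, for the 74 genes (red) and for all genes that average 5 CPM or more (grey). The 74 genes lie above the dashed line of a 2-fold difference at every control level from 0.608 to 538 CPM, and the farthest from it stand at the low end.

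The 7 genes with at least 100 CPM in control mycelia rose by less than the median of the 74, from 1.23 to 1.53 on the log2 scale. MAP00_005247 had 1360, 1180 and 1598 CPM in metal-ion libraries, against 539, 526 and 548 CPM in control libraries, a log2 fold change of 1.25 ± 0.13. MAP00_001526 had 1131, 1299 and 1367 CPM in metal-ion libraries, against 390, 419 and 508 CPM in control libraries, and rose by 1.43 ± 0.15. These 2 were already abundant in control mycelia, at places 251 and 465 by FPKM. MAP00_006466 had 379, 379 and 387 CPM in metal-ion libraries, against 147, 123 and 164 CPM in control libraries, a log2 fold change of 1.29 ± 0.12.

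LEU2A bears the name of an isopropylmalate dehydrogenase, an enzyme of leucine synthesis. It had 760, 590 and 833 CPM in metal-ion libraries, against 286, 290 and 283 CPM in control libraries, a log2 fold change of 1.23 ± 0.12. The 3 control values nearly coincide, while metal-ion replicate 2 is well below the others and places the gene just inside the rule, at 2.04 times the highest control value. Its model overlaps MAP00_002772, which averaged 18.4 ± 1.76 CPM in metal-ion and 15.3 ± 0.656 CPM in control mycelia (SD, n = 3 each). Of 6 tested genes with symbols of branched-chain amino acid metabolism, a list written after the tables had been opened, 3 were called higher and none lower, with a median log2 fold change of 0.33, beside 6.66% called higher and a median of 0.03 over all tested genes. LEU2A is one of the 3 through the rule that chose it, and the median of 0.33 includes it. The others were BAT2, which in yeast encodes a branched-chain aminotransferase, at 0.50 ± 0.10 (edgeR adjusted p = 0.00989) and ILV2_1, named for the acetolactate synthase of isoleucine and valine synthesis, at 0.43 ± 0.10 (edgeR adjusted p = 0.0212). ILV6, ILV2_3 and LEU6 were not called, at 0.24, -0.22 and 0.11. Of the genes named ILV2, ILV2_3 was far more abundant, at 4426 CPM in metal-ion and 4792 CPM in control mycelia. ILV2_1 averaged 441 and 302 CPM.

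MDR1_2 is named for multidrug transporters, membrane pumps that move foreign compounds out of the cell. It had 475, 483 and 619 CPM in metal-ion libraries, against 181, 157 and 174 CPM in control libraries, a log2 fold change of 1.52 ± 0.13. The 3 other genes of a transporter list, MDR1_1, MDR2 and MFS1, were not called, beside 12% of all tested genes called in either direction. Their log2 fold changes were -1.02 ± 0.52, -0.12 ± 0.14 and 0.91 ± 0.48. The large errors belong to MDR1_1 and MFS1, which averaged 0.797 and 1.26 CPM in metal-ion and 1.54 and 0.622 CPM in control mycelia. The ribosomal protein gene RPL39 next to MDR1_2 fell to 913 ± 151 CPM in metal-ion mycelia, against 1273 ± 46.7 CPM in control mycelia (SD, n = 3 each; edgeR adjusted p = 0.0365). It was the only tested gene next to any of the 75 that was called lower.

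AOX1_3 had 194, 132 and 178 CPM in metal-ion libraries, against 45.6, 38.5 and 56.0 CPM in control libraries, a log2 fold change of 1.73 ± 0.15. The other two genes of that symbol, AOX1_1 and AOX1_2, were not called, at -0.38 ± 0.28 and 0.18 ± 0.20. They were also far less abundant, at 1.63 and 8.55 CPM in metal-ion and 1.98 and 6.97 CPM in control mycelia. Of 10 tested genes in a list of redox enzymes, all with CYP or AOX1 symbols, AOX1_3 was the only one called. The rule chose AOX1_3 for being higher, and 12% of all tested genes were called in either direction. The list was matched by symbol alone and does not speak for other redox enzymes. SOD2, AAD14 and LEU2A, which rose, were not in it.

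Sets of adjacent genes, 7 in number, held 17 of the 75, namely the run of 5 described above and 6 pairs, while 58 had no other within 3 positions. In 2 pairs the genes rose by unlike amounts. MAP00_007905, beside MAP00_007906, had 12.8, 11.0 and 11.3 CPM in metal-ion libraries, against 4.25, 2.76 and 2.46 CPM in control libraries, a log2 fold change of 1.78 ± 0.21 beside the 4.32 of its neighbour. MAP00_002216 had 122, 139 and 102 CPM in metal-ion libraries, against 16.9, 11.2 and 18.8 CPM in control libraries, a log2 fold change of 2.85 ± 0.19. Beside it MAP00_002217 had 69.1, 70.6 and 69.6 CPM in metal-ion libraries, against 26.5, 25.8 and 30.8 CPM in control libraries, a log2 fold change of 1.23 ± 0.11. The gene after this pair, MAP00_002218, was called higher at 0.99 ± 0.11 (edgeR adjusted p = 2.30e-04), so sizes stepped down along 3 adjacent genes.

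In 3 of the other 4 pairs the 2 log2 fold changes lay closer together, and no test of their difference was made. MAP00_004295 and MAP00_004296 rose by 1.81 ± 0.14 and 1.88 ± 0.13. Their metal-ion values were 172, 170 and 163 CPM for MAP00_004295, against control values of 36.3, 53.0 and 44.0 CPM. MAP00_004296 had 149.5, 149.9 and 139 CPM in metal-ion libraries, against 32.6, 44.0 and 34.1 CPM in control libraries. Both genes were highest in replicate 2 of control and lowest in replicate 3 of metal-ion.

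MAP00_005403 and MAP00_005404 rose by 1.72 ± 0.11 and 1.67 ± 0.17, and averaged 70.1 and 52.0 CPM in metal-ion and 19.8 and 15.3 CPM in control mycelia. MAP00_008756 and MAP00_008757 rose by 1.59 ± 0.20 and 1.91 ± 0.17, and averaged 28.6 and 11.8 CPM in metal-ion and 8.79 and 2.92 CPM in control mycelia. In the last pair MAP00_001525 rose by 1.92 ± 0.14, beside 1.43 ± 0.15 for MAP00_001526. MAP00_001525 had 59.4, 69.9 and 79.1 CPM in metal-ion libraries, against 18.9, 16.2 and 16.4 CPM in control libraries. It lies between the abundant MAP00_001526 and MAP00_001524, whose model it overlaps and which was called higher at 0.90 ± 0.10 (edgeR adjusted p = 2.30e-04). Of the 14 genes that flank the 7 sets, these called genes, MAP00_002218 and MAP00_001524, were the exceptions. Of the others 11 were tested and not called, and MAP00_004297 was not tested.

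**Figure D4:**
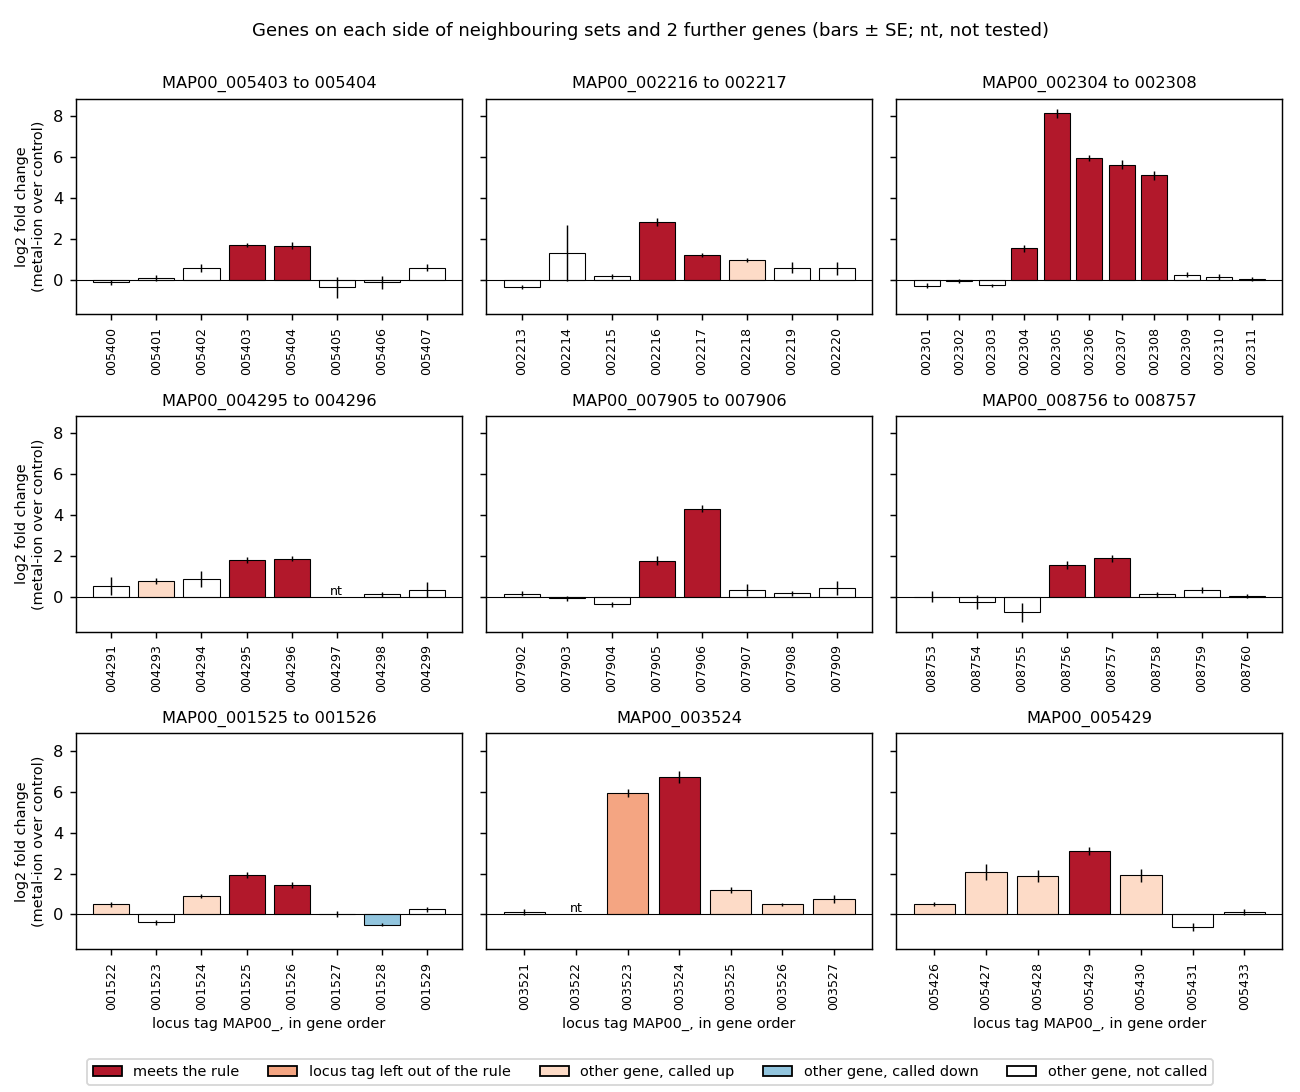
Log2 fold change, metal-ion over control, of the genes in each of the 7 sets and up to 3 genes on each side, in gene order, with bars of 1 standard error, and the same around MAP00_003524 and MAP00_005429. The run MAP00_002304 to MAP00_002308 is bounded on both sides by genes near 0, whereas around MAP00_005429 smaller neighbours rose too.

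MAP00_005429 had 177, 224 and 176 CPM in metal-ion libraries, against 22.0, 16.0 and 25.3 CPM in control libraries. It stood in a run of 5 called genes in which it alone met the rule. MAP00_005428 and MAP00_005430, beside it, averaged 5.80 ± 2.03 and 4.11 ± 1.18 CPM in metal-ion and 1.44 ± 0.296 and 1.00 ± 0.281 CPM in control mycelia (SD, n = 3 each). Their log2 fold changes were 1.89 ± 0.29 (edgeR adjusted p = 0.00272) and 1.91 ± 0.33 (edgeR adjusted p = 0.00472). MAP00_005427, at 2.07 ± 0.38, and MAP00_005426, at 0.51 ± 0.12, completed the run.

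The genes next to the 75 are not among those the rule chose, and any neighbour that met the rule is counted with the 75. They are therefore set against the tested locus tags that neither met the rule nor were left out of it. Of 122 tested genes directly beside one of the 75, with the locus tags left out of the rule not counted, 28 were called higher, which is 23.0%, and 1 lower. Of those 8388 tested locus tags, these neighbours included, 473 (5.64%) were called higher. At 2 positions 8 of 120 (6.67%) were called higher, at 3 positions 11 of 112 (9.82%), at 4 to 6 positions 22 of 320 (6.88%) and at 7 to 10 positions 27 of 396 (6.82%). The higher share was thus found in direct neighbours, whose median log2 fold change was 0.25, against 0.01 over the 8388. No test of the difference in shares was made, since genes are not replicates.

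Those 28 neighbours lay beside 27 of the 75 genes, and their rises were smaller, from 0.33 to 1.91 with a median of 0.80. Of the 28, 2 overlap the model of the gene they adjoin, MAP00_001524 and MAP00_001230, beside 8 of all 122 tested direct neighbours. Some of the 28 had far more mRNA than the gene they adjoin. MAP00_007591 averaged 1830 CPM in metal-ion and 899.9 CPM in control mycelia, beside 50.8 and 17.7 CPM for MAP00_007592. MAP00_002156 averaged 300.6 CPM in metal-ion and 109 CPM in control mycelia, beside 20.5 and 6.31 CPM for MAP00_002155, and rose by 1.34 ± 0.20 (edgeR adjusted p = 0.00222). The share of direct neighbours called higher moved with the libraries used, between 10.5% without control replicate 1 or 2 and 31.7% without metal-ion replicate 2. The share over the locus tags they are set against was then 1.83% without control replicate 1, 1.64% without control replicate 2 and 13.6% without metal-ion replicate 2.

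**Figure D5:**
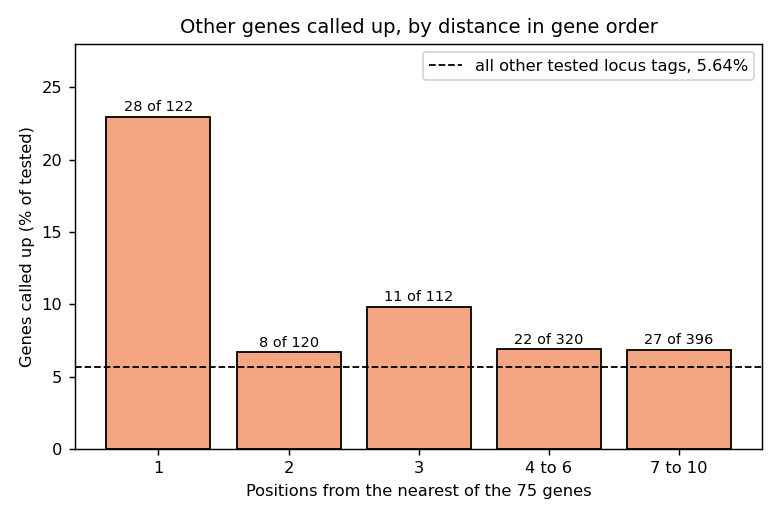
Percent of tested genes that edgeR called higher in metal-ion mycelia, by distance in gene order from the nearest of the 75 genes, with those genes and the locus tags left out of the rule not counted. The bar at 1 position stands at 23.0% and the bars from 2 to 10 positions between 6.67 and 9.82%, against the dashed line of 5.64% for all tested locus tags neither chosen by the rule nor left out of it.

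The coefficient of variation of the 74 over 3 libraries had a median of 12.9% in metal-ion and 11.4% in control mycelia, values that the rule bears on, since it favours tight groups. Metal-ion replicate 2 was the lowest of its group in 36 of the 74 genes (48.6%), replicate 1 in 22 and replicate 3 in 16. Among the 529 other genes called higher, replicate 2 was lowest in 71.6%. The median log2 ratio of replicate 2 to the mean of replicates 1 and 3 was -0.09 in the 74 and -0.29 in the 529. The rule itself asks replicate 2 to be at least 2 times every control library, so this difference is not independent of it.

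Genes on either side of the factor of 2 differed little, which did not hold at the minimum level. LEU2A, MAP00_007592 and MAP00_008444 were just inside, each with a lowest metal-ion value 2.04 times the highest control value. MAP00_001590, MAP00_007417 and MAP00_003525 were just outside, at 1.96, 1.95 and 1.95 times. At the minimum level, MAP00_002225 passed with a mean of 5.47 CPM. MAP00_008385, with 8.17, 12.0 and 8.69 CPM in metal-ion libraries and 0.386, 0.246 and 0.267 CPM in control libraries, fell short at 4.97 CPM, although its lowest metal-ion value was 21.2 times its highest control value.

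Gene length and model overlap in the 75 genes were near those of all locus tags. The gene length implied by counts and FPKM had a median of 1532 bases in the 74, against 1566 bases over all locus tags and 1782 bases over those with a mean of at least 5 CPM. Models of 8 of the 75 overlap a neighbour (10.7%), as do those of 1061 of the 9151 locus tags (11.6%). Name lists for zinc, magnesium and phosphate transport, regulators, spores and sexual bodies matched no symbol. A name list for iron and siderophores matched 4 genes, MIR1, SID4, SIT4 and SIT2, by symbol alone, so their roles were not checked. SID4 and SIT2 were called lower, beside 5.32% of all tested genes, and none of the 4 was among the 75. The secondary metabolism gene AGNPKS1 and the chitin synthesis gene CHS7 were not called, at 0.19 and -0.13.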

How the data were processed

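RNA from 6 libraries, 3 metal-ion and 3 control, was sequenced from unstranded NEBNext Ultra libraries, per the labels' protocols. TopHat2 was used, per the submitters' processing notes. The sources used here name no counting tool, build or annotation. The authors deposited whole-number counts and FPKM values for 9836 genes. Locus tags were matched to the annotation of assembly ASM2599979v1 (strain KUPM5) for symbols, gene order and overlaps only. Product names and promoter motifs were not analysed here.

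CPM was computed from the deposited counts and the library totals. Fold changes came from the quasi-likelihood test of edgeR 4.0.16 (R 4.3.3) with TMM scaling, a low-count filter at its default (9048 genes kept) and Benjamini-Hochberg adjustment, called at an adjusted p under 0.05. SEs were derived from the F statistic of each fold change. All replicate pairs differed by more than counting noise, by a chi-square of at least 14.3 per degree of freedom. DESeq2 1.42.0, limma 3.58.1 on log2(FPKM + 1) and log2(FPKM + 0.1), and the removal of each library were alternatives. The genes and lists were chosen with earlier results of these data known. Named genes are those in neighbouring sets and their flanks, the 10 steepest, the 5 highest in metal-ion, the 5 highest and 5 lowest in control, those with symbols and those beside a threshold. Other genes were named after their values were seen.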

Additional observations from a re-analysis of the deposited data

How the results depend on the processing

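Among named genes, 2 that were not called under any setting changed sign. MAP00_001527, at 0.03, ran from -0.12 to 0.16 with 1 library left out (-0.12 without metal-ion replicate 3, -0.08 without control replicate 2). MAP00_005405, at -0.36, ran from -0.72 to 0.13 (0.13 without control replicate 2). The number meeting the rule was 160 at a factor of 1.5, 27 at a factor of 3, and 75 to 115 with 1 library left out, the most without metal-ion replicate 2. It was 64 with TMM-scaled CPM, 68 with FPKM (67 shared), 74 when a value above 0 was asked of each metal-ion library and 76 with the added genes of the authors counted, both of these chosen after seeing the data. Genes in neighbouring sets numbered 46 and 6 at factors of 1.5 and 3 in place of 17, and 17 to 29 with 1 library left out, the most without metal-ion replicate 2. Genes within 3 positions called higher numbered 47, or 17 to 83 with 1 library left out (83 without metal-ion replicate 2, 17 without control replicate 1), and 28 within 1 position. The median log2 fold change of 1.67 became 1.77 with library totals alone, 1.59 with limma on log2(FPKM + 1), 1.76 with 0.1 added, and 1.59 to 1.70 with 1 library left out. Over the table, 1084 genes were called (603 higher). The count was 1204 (860 higher) with library totals alone, where the median of all genes was 0.14, and 1110 (782 higher) and 1084 (762 higher) with limma. It was 1590 (810 higher) with DESeq2. It ran from 348 without control replicate 2 to 2829 without metal-ion replicate 2; removal of any other single library left 362 to 472. Of the flanking genes, MAP00_002303, MAP00_004294, MAP00_005402 and MAP00_007904 were called under some settings.

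Whether the replicate numbers pair the libraries of the groups was not settled. Deviations of same-numbered libraries correlated weakly, at 0.0420 to 0.185. Between libraries of unlike number the correlations ran from -0.162 to 0.0610, and 5 of 6 libraries correlated best with their own number. With the replicate number as a block 1365 genes were called, and 32 of 122 direct neighbours were called higher instead of 28.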

Other observations

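Of the 685 identifiers that the authors added without a locus tag, 1 met the same thresholds of level and of difference as the 75 genes. Of the 15 genes with 0 counts in 1 library and at least 100 in another, 10 were locus tags.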
